A study of Mus musculus with 4 samples.

Results

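The mitochondrially encoded mRNAs were examined in RNA-seq of NIH/3T3 cells, an immortalised line of mouse fibroblasts. Members were the rows of the transcript table whose gene symbol was *mt-Nd1*, *mt-Nd2*, *mt-Nd4*, *mt-Nd5*, *mt-Nd6*, *mt-Cytb*, *mt-Co1*, *mt-Co2*, *mt-Co3* or *mt-Atp6*. All 10 were found, among 21945 genes and 34200 transcripts. The cells had been transfected with *Setd2*-specific siRNAs (KD) or with Scrambled siRNA (WT), each at 10 nM, and were lysed 48 h later. SETD2 is the methyltransferase that places H3K36me3 along transcribed nuclear genes. Each group had 2 libraries, made from polyadenylated RNA with a stranded kit. The knockdown is transient, so the cells are a mixed culture and not a clone, and labels do not say whether replicates came from separate cultures.

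The mitochondrial genome is a small circle whose strands are each transcribed as long precursors. Most of its mRNAs lie between tRNAs, and cutting out the tRNAs releases them. The mRNAs have almost no untranslated sequence and no introns, and many receive a short poly(A) tail inside the organelle, which for some of them completes the stop codon. They encode core subunits of complex I (*mt-Nd1*, *mt-Nd2*, *mt-Nd4*, *mt-Nd5*, *mt-Nd6*), complex III (*mt-Cytb*), complex IV (*mt-Co1*, *mt-Co2*, *mt-Co3*) and ATP synthase (*mt-Atp6*). All other subunits of these complexes that the lists below hold are made from nuclear genes. Mitochondrial DNA carries no histones, so H3K36me3 does not mark it.

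The last 30 bases of each mRNA show how the annotated messages end. They were read from the GENCODE M21 transcripts (GRCm38) and are given 5′ to 3′ in the sense of the mRNA, with the letters of the stop codon in capitals.
*mt-Nd1* (chrM:3678-3707, + strand): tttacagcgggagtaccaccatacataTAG
*mt-Nd2* (chrM:4922-4951, + strand): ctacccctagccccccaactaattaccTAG
*mt-Co1* (chrM:6843-6872, + strand): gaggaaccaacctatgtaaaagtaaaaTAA
*mt-Co2* (chrM:7667-7696, + strand): ttcgaaaactgatctgcttcaataattTAA
*mt-Atp6* (chrM:8578-8607, + strand): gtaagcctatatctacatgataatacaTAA
*mt-Co3* (chrM:9361-9390, + strand): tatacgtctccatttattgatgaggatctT
*mt-Nd4* (chrM:11515-11544, + strand): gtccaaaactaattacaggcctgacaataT
*mt-Nd5* (chrM:13536-13565, + strand): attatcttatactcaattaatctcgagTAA
*mt-Nd6* (chrM:13552-13581, − strand): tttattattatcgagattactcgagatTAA
*mt-Cytb* (chrM:15259-15288, + strand): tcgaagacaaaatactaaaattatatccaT

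In 7 of the 10 the annotated message ends with a complete stop codon. The annotated *mt-Nd2* message ends at base 4951, whereas the tRNA gene *mt-Tw* begins at base 4950 of the same strand. Part of that stop codon thus also belongs to the annotated tRNA. Where the released messages end was not examined. The messages of *mt-Co3*, *mt-Nd4* and *mt-Cytb* end in a lone T, to which added A residues would give TAA. *mt-Nd6* is the only member on the − strand, and its annotated 3′ end overlaps that of *mt-Nd5* on the other strand by 14 bases. *mt-Atp6* shares 43 bases with *mt-Atp8* and 1 base with *mt-Co3*, and *mt-Nd4* shares 7 bases with *mt-Nd4l*. The base shared with *mt-Co3* is the last of the *mt-Atp6* stop codon. Strand also sets base composition apart. G made up 28.1% of the *mt-Nd6* message and C 6.0%, whereas in the 9 members of the + strand G made up 8.0 to 16.1% and C 23.8 to 27.7%.

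Almost the whole set stood at the top of the transcriptome. Levels are the deposited mean over all 4 libraries of the natural log of normalised estimated counts, taken back to counts, and are therefore geometric means that pool KD and WT. They are given in kcounts, which are units of 1000 normalised estimated counts. Separate values for each library were not analysed, so each level is given with the range of 1 SD over the 4 libraries on the log scale, which also contains any difference between KD and WT. The 10 members held 11.8% of the summed levels of all transcripts, and 9 of them were among the 10 highest transcripts of the table. The other was *Eef1a1*, a translation elongation factor, in place 5. In bulk cultures, the number of mitochondrial genomes per cell and the RNA made or kept per genome cannot be told apart.

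Complex IV messages came first. *mt-Co1*, the catalytic subunit of cytochrome c oxidase, had the highest level of any transcript, 2110.0 kcounts (1974 to 2256 kcounts), which was 3.24% of all summed levels. *mt-Co2*, which accepts electrons from cytochrome c, followed at 1169 kcounts (911 to 1500.2 kcounts). *mt-Co3*, the third core subunit, was at 997 kcounts (891 to 1115 kcounts). The range of *mt-Co1* lay above that of every other member, whereas those of *mt-Co2* and *mt-Co3* overlapped.

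The middle of the order held subunits of complexes I and III and of ATP synthase. *mt-Nd1*, a membrane subunit of complex I, had a level of 807 kcounts (721 to 903 kcounts). *mt-Cytb*, the cytochrome b of complex III, had a level of 724 kcounts (650 to 807 kcounts). *mt-Nd2* had a level of 536 kcounts (467 to 616 kcounts). Neighbours overlapped in range from *mt-Co2* down to *mt-Cytb*, and *mt-Nd2* lay below *mt-Cytb* without overlap.

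*mt-Atp6*, part of the proton channel of ATP synthase, had a level of 451 kcounts (427 to 477 kcounts). *mt-Nd5* had the same rounded level, 451 kcounts, with a wider range (384 to 531 kcounts). *mt-Nd4* had a level of 410.1 kcounts (368 to 458 kcounts). These complex I and ATP synthase messages overlapped in range with one another, and *mt-Atp6* and *mt-Nd5* also with *mt-Nd2*.

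*mt-Nd6* stood apart at 14.1 kcounts (11.1 to 17.9 kcounts), rank 554 of all transcripts. The highest member was 149 times the lowest. Since the libraries were made from polyadenylated RNA, a scarce mRNA and one with few or short tails cannot be told apart.

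**Figure D1:**
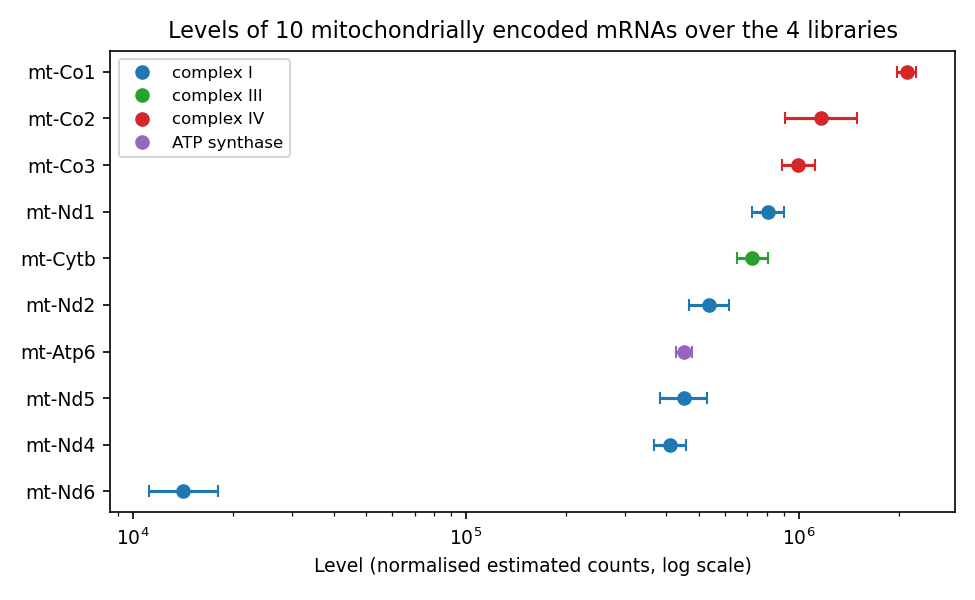
Level of each of the 10 mitochondrial mRNAs in normalised estimated counts on a log axis, coloured by complex; points are the geometric mean over all 4 libraries and bars reach 1 SD to either side on the log scale. *mt-Co1* leads at 2110.0 kcounts, 8 others lie between 410.1 and 1169 kcounts, and *mt-Nd6* is far below at 14.1 kcounts.

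Divided by annotated length, the order changed in places. *mt-Co2* came first at 1709 kcounts per kb, ahead of *mt-Co1* at 1366 kcounts and *mt-Co3* at 1272 kcounts per kb. No ranges were computed per kb, and *mt-Co2* had the largest SD of the members, 0.36 on the log2 scale. The order of the complex IV messages per kb was not tested. *mt-Nd1* (843 kcounts per kb) was followed by *mt-Atp6* (663 kcounts), *mt-Cytb* (633 kcounts), *mt-Nd2* (517 kcounts), *mt-Nd4* (298 kcounts) and *mt-Nd5* (247 kcounts). *mt-Nd6* was last at 27.2 kcounts per kb. The 9 members of the + strand spanned 6.91 times between the highest and the lowest, and *mt-Nd5* was still 9.09 times *mt-Nd6*. Per kb, the median of the 5 complex I members was 298 kcounts and that of the 3 complex IV members 1366 kcounts.

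Each member was higher per kb than every nuclear gene of its own complex in the lists. Listed nuclear genes whose transcripts had no length in the annotation were left out of the values per kb. *mt-Nd1* was 159 times the median of 35 nuclear complex I genes, *mt-Nd2* 97.3 times, *mt-Nd4* 56.1 times and *mt-Nd5* 46.6 times. *mt-Nd6* was only 5.13 times this median and 1.47 times the highest of them, *Ndufb8*. *mt-Nd6* and the highest transcript of *Ndufb8* each had an SD of 0.34 on the log2 scale. Whether this pair differed beyond that spread was not tested. *mt-Cytb* was 62.6 times the median of 9 nuclear complex III genes and 12.5 times *Uqcrh*, the highest. In complex IV, *mt-Co1* was 58.2 times, *mt-Co2* 72.8 times and *mt-Co3* 54.2 times the median of 10 nuclear genes, the highest of which was *Ndufa4*. *mt-Atp6* was 40.8 times the median of 17 nuclear ATP synthase genes and 15.9 times *Atp5l*. For every member but *mt-Nd6*, the ratio to the highest nuclear gene of the complex was at least that of *mt-Cytb*.

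**Figure D2:**
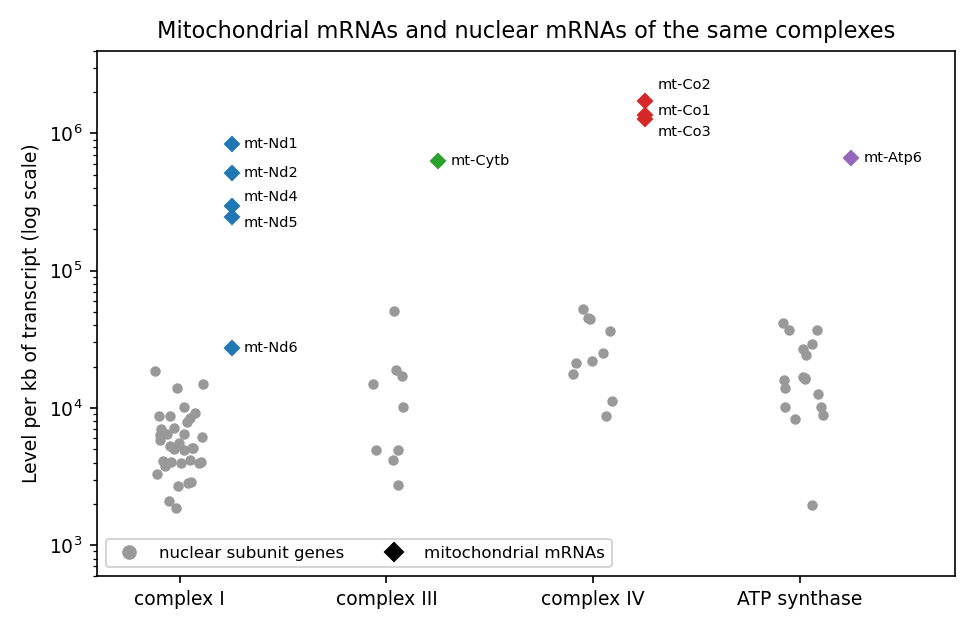
Level per kb of transcript (normalised estimated counts, log axis) of the mitochondrial mRNAs (diamonds) and of the nuclear subunit genes of the same complexes (grey points, summed over transcripts). Every diamond lies above the grey points of its complex, and *mt-Nd6* lies closest to them.

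Because the libraries were not analysed one by one, no test of KD against WT was made, and neither the direction nor the significance of a change is given for any mRNA. What the spread over the libraries does give is a ceiling. The variance over 4 libraries holds the difference between the group means as one part, so with 2 libraries in each group the means cannot differ by more than the square root of 3 times that variance. This largest possible difference would be reached only if the 2 libraries within each group, KD and WT alike, were identical. It limits the size of a change in either direction and is no estimate of it.

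For 8 of the 10 members, the largest possible difference between KD and WT was under 1.5-fold. The same held for 84.9% of the 847 nuclear transcripts with a level of at least 10000 counts and for 54.2% of all transcripts, so the members were not set apart by it. *mt-Atp6* had the smallest SD, 0.080 on the log2 scale, and could differ by at most 1.10-fold. *mt-Co1* had an SD of 0.096 and a ceiling of 1.12-fold. The deposited variance of this pair leaves room for only a small change in either direction.

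Intermediate members were close to one another. *mt-Nd1*, *mt-Nd4*, *mt-Cytb* and *mt-Co3* each had an SD of 0.16, with ceilings of 1.22-fold for *mt-Nd1* and 1.21-fold for the others. *mt-Nd2* had an SD of 0.20 (ceiling 1.27-fold) and *mt-Nd5* one of 0.23 (1.32-fold). The widest were *mt-Nd6*, with an SD of 0.34 and a ceiling of 1.51-fold, and *mt-Co2*, with an SD of 0.36 and a ceiling of 1.54-fold. A change of up to these sizes in the latter pair would be hidden in the pooled values.

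**Figure D3:**
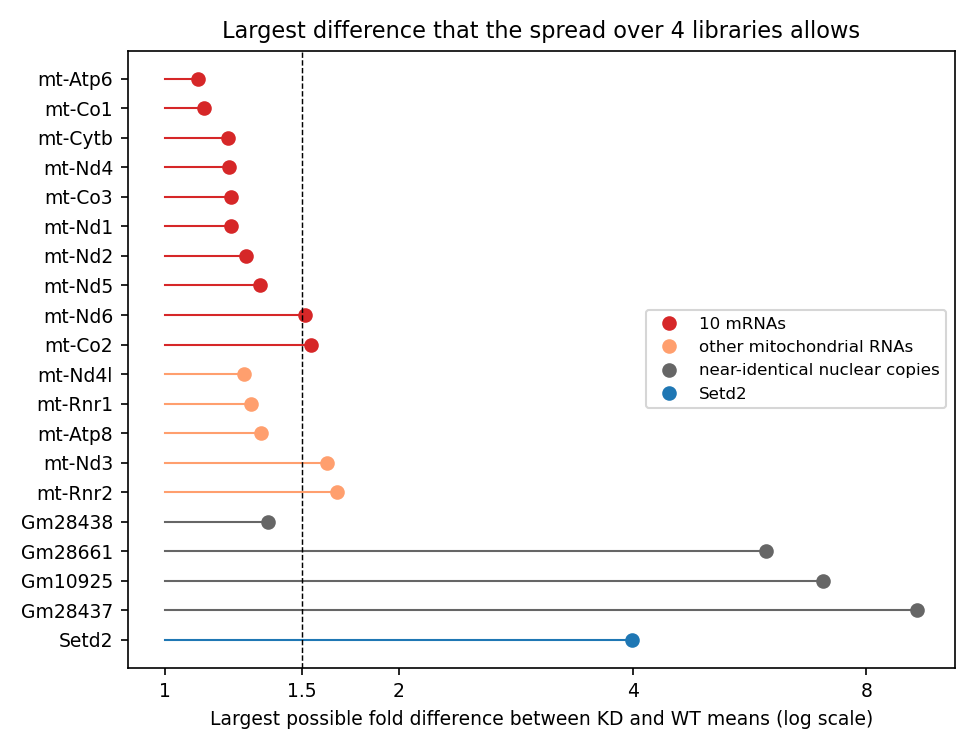
Largest fold difference between the KD and WT means that the variance over the 4 libraries allows (log axis, dashed line at 1.5-fold), for the 10 members (red), other mitochondrial RNAs (orange), near-identical nuclear copies (grey) and *Setd2* (blue). Of the members, only *mt-Nd6* (1.51-fold) and *mt-Co2* (1.54-fold) pass the line, while 3 of the copies reach 5.95-fold or more.

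The median SD of the members was 0.16, and 6 of 10 were below the median of the highly expressed nuclear transcripts, 0.19 (0.074 to 0.38 from the 10th to the 90th percentile). *mt-Co2* was above 87.4% and *mt-Nd6* above 85.6% of these transcripts, while *mt-Atp6* was above 11.3%. *Setd2* itself, the target of the siRNAs, had a level of 1844 counts (829 to 4098) and an SD of 1.15, which allows up to 3.99-fold between the groups. Its level in each library, and with it the check of the labels, was not analysed here.

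**Figure D4:**
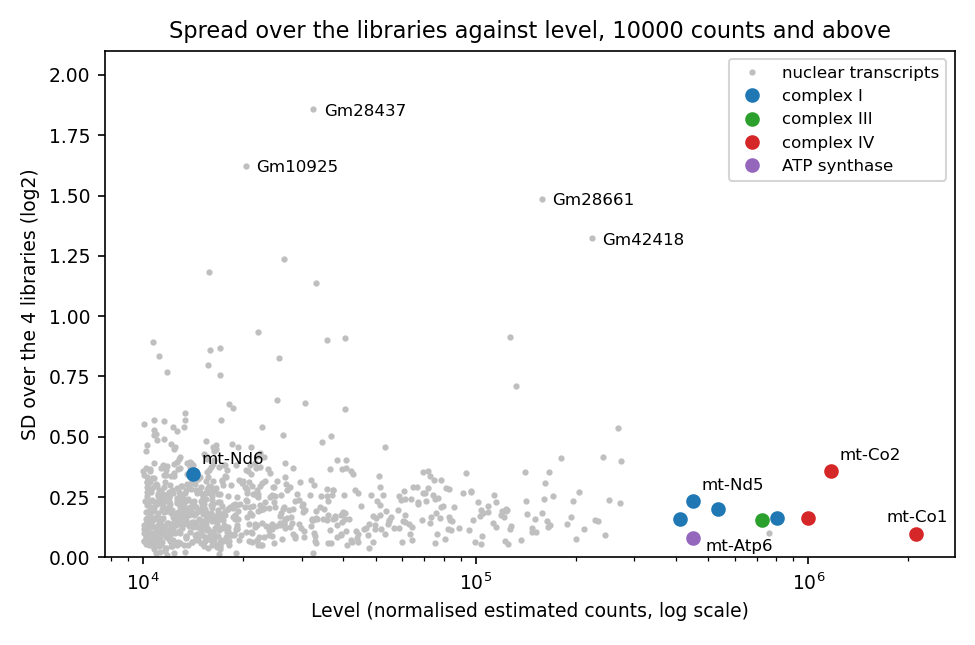
SD over the 4 libraries (log2) against level (normalised estimated counts, log axis) for the 847 nuclear transcripts of at least 10000 counts (grey) and the 10 members, coloured by complex. Members range from 0.080 for *mt-Atp6* to 0.36 for *mt-Co2*, within the bulk of the nuclear points, whereas the 3 highest nuclear points, *Gm28437*, *Gm10925* and *Gm28661*, are copies of mitochondrial genes.

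The 3 most variable of those nuclear transcripts were copies of members. Copies of mitochondrial DNA that were pasted into chromosomes in evolution are annotated as pseudogenes, and reads that fit both places have to be divided by the quantification. A block of 7 such pseudogenes lies at chr1:24611535-24616197 on the − strand of GRCm38, within 4.66 kb, and 5 of the 7 match their mitochondrial gene without a mismatch. *Gm28661* repeats *mt-Co2* over 681 bases with 0 mismatches. Its annotated transcript stops just before the place of the stop codon, as the 3′ ends show. The chromosome beyond that annotated end was not read, so whether the copy holds a stop codon was not examined.
*mt-Co2* (chrM:7667-7696, + strand): ttcgaaaactgatctgcttcaataattTAA
*Gm28661* (chr1:24614885-24614911, − strand): ttcgaaaactgatctgcttcaataatt

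*Gm28437* repeats *mt-Co3* over 783 bases and *Gm10925* repeats *mt-Atp6* over 678 bases, both with 0 mismatches. *Gm28661* was listed at 158 kcounts (56.5 to 443 kcounts), with an SD of 1.48. *Gm28437* was listed at 32.4 kcounts (8.95 to 118 kcounts), with an SD of 1.86, and *Gm10925* at 20.3 kcounts (6.59 to 62.7 kcounts), with an SD of 1.62. Their ceilings for KD against WT were 5.95-fold, 9.30-fold and 7.03-fold. The copies therefore varied far more than the mitochondrial genes with the same sequence, of which *mt-Atp6* had the smallest SD of all members.

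Of the summed levels of each pair, 88.1% lay on *mt-Co2*, 95.7% on *mt-Atp6* and 96.8% on *mt-Co3*. These are shares of geometric means and not of reads. No range was computed for them, although the ranges of the copies were wide. The range of 1 SD of *Gm28661* spanned 386 kcounts, beside 590 kcounts for *mt-Co2*. Whether reads were moved between the members of a pair from library to library was not tested, since it needs the values of each library. All copies together held 0.586% of the summed levels, a sum that includes *Gm28438*, the copy of *mt-Nd3*, which is not a member. Addition of *Gm28661*, *Gm28437* and *Gm10925* to their members raised the share of the members from 11.8 to 12.1% and left their order per kb as it was.

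The uncertainty of read assignment can be read from the deposited technical variance, which the authors obtained by resampling the reads in each library. Multiplied by the level, it is near 1 where counting is the only source, and its median was 1.10 in the highly expressed nuclear transcripts. In *mt-Co2* it was 648, in *mt-Atp6* 353 and in *mt-Co3* 149. Only 6 of the 847 nuclear transcripts (0.708%) reached 100, among them *Gm28437*, the copy of *mt-Co3*, at 124. In the other 7 members it lay between 0.705 and 1.32.

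The 3 members with products above 100 also shared almost all of their sequence with other annotated transcripts. Every stretch of 31 bases was looked up on both strands in the transcripts of other genes. All 654 stretches of *mt-Co2* occurred elsewhere, as did 753 of 754 in *mt-Co3* and 648 of 651 in *mt-Atp6*. *mt-Co1* shared 968 of 1515 and *mt-Nd4* 846 of 1348. In *mt-Nd5* 302 of 1794 stretches were shared, in *mt-Nd2* 136 of 1008, in *mt-Cytb* 73 of 1114 and in *mt-Nd6* 36 of 489. *mt-Nd1* was the only member of which no stretch was found in another gene.

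For *mt-Co1* and *mt-Nd4* the product stayed near 1 although much of their sequence is shared. The *mt-Co1* copy in the chr1 block, *Gm29216*, covers 492 bases with 6 mismatches and was listed at 86.9 counts, and *Gm13340* on chromosome 2, with 37 mismatches in 1545 bases, was listed at 118 counts. *Gm28439*, which repeats 876 bases of *mt-Nd4* with 0 mismatches, was not in the table. How reads of the shared stretches were divided in any of these pairs was not tested.

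**Figure D5:**
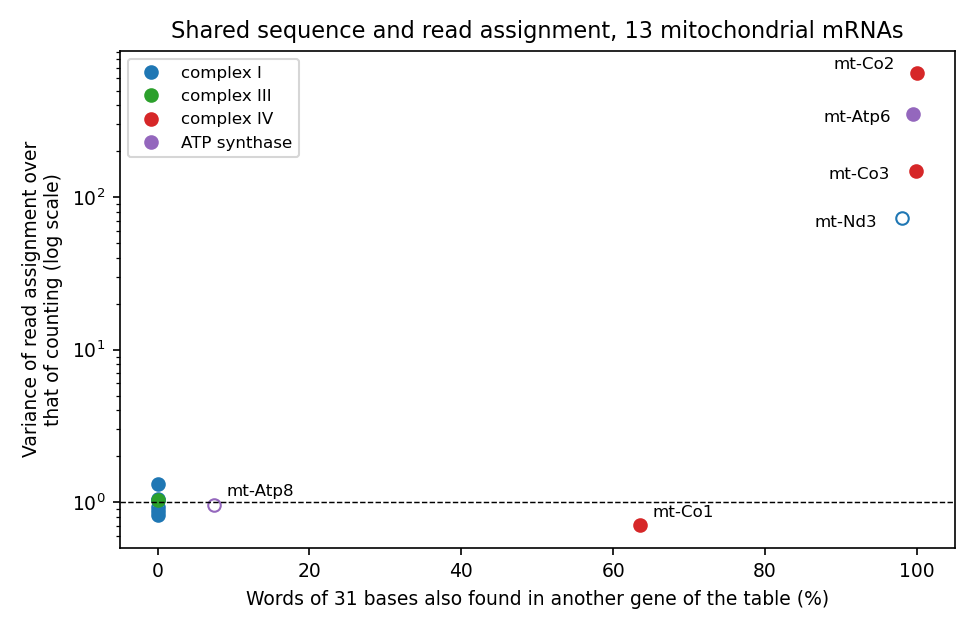
Variance of read assignment multiplied by level (log axis, about 1 for counting alone) against the percent of 31-base stretches that occur in other genes of the table. Filled points are the 10 members and open points the other mitochondrial mRNAs; *mt-Co2*, *mt-Atp6* and *mt-Co3*, at or near full overlap, reach 149 to 648, and the other members lie between 0.705 and 1.32.

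Nuclear genes that serve the mitochondrial mRNAs were far lower than all members but *mt-Nd6*, and their median SDs were 0.16 for transcription and replication and 0.15 for processing and decay, beside 0.16 for the members. The values are sums over the transcripts of a gene, and SDs and ceilings are those of its highest transcript. Such a ceiling does not limit the sum of a gene with several transcripts. All 20 genes listed for transcription and replication of mitochondrial DNA were in the table, with a median level of 1270 counts. Of these, 19 (95%) had a ceiling under 1.5-fold, beside 54.2% of all transcripts. *Polrmt*, the mitochondrial RNA polymerase, was at 2515 counts and had the highest SD of this list, 0.41, with a ceiling of 1.63-fold. *Tfam*, which packs the mitochondrial genome and starts its transcription, was at 3444 counts with an SD of 0.14 and a ceiling of 1.19-fold. The highest transcript of *Polrmt* (2049 counts) was thus less tightly limited than that of *Tfam* (2455 counts). No ceiling was computed for the sums of these genes.

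Of 32 genes listed for processing, polyadenylation and decay of mitochondrial RNA, 31 were found, and 29 of them had a ceiling under 1.5-fold. *Lrpprc* and *Slirp*, whose products bind and keep mitochondrial mRNAs together, were at 10373 counts (SD 0.31, ceiling 1.46-fold) and 5044 counts (SD 0.12, 1.16-fold). *Mtpap*, the mitochondrial poly(A) polymerase, was at 1593 counts with an SD of 0.06 and a ceiling of 1.08-fold. *Tbrg4*, at 4442 counts, and *Dhx30* both code for RNA-binding proteins of mitochondria. Their highest transcripts, with SDs of 0.51 and 0.42, could differ by up to 1.84-fold and 1.65-fold. No ceiling was computed for the summed transcripts of either gene. Among 9 regulators of mitochondrial biogenesis, the highest transcript of 8 had a ceiling under 1.5-fold. That of *Pprc1*, a relative of PGC-1α, had the widest (1.55-fold). *Ppargc1a*, which codes for PGC-1α itself, was low at 103 counts.

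A ceiling under 1.5-fold was found for 84.9% of highly expressed nuclear transcripts and 54.2% of all transcripts. Nuclear partner subunits were again judged by the highest transcript of each gene. Among them such a ceiling was found for 34 of 37 complex I genes, 9 of 9 of complex III, 10 of 11 of complex IV and 17 of 18 of ATP synthase. It was also found for 4 of 4 of complex II, which has no mitochondrially encoded subunit. The label of the cells was checked on the pooled levels. All 11 fibroblast markers were in the table, led by *Fn1* (323250 counts) and *Col1a2* (273156 counts), with *Lum* near absent at 6.99 counts. Of 11 markers of other cell types, 7 were in the table and summed to 605 counts, most of it *Cd68* (343 counts), and *Epcam*, *Krt18*, *Gfap* and *Myod1* were not in the table.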

How the data were processed

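RNA-seq of 2 KD and 2 WT libraries was analysed. The submitters' methods name adapter removal with BBDuk, quantification with Kallisto and comparison with Sleuth. The authors deposited, for each transcript, the mean over the 4 libraries of normalised estimated counts on the natural log scale (after adding 0.5), with its variance over the libraries and the variance of read assignment from resampled reads. The index and the filter on low counts are not given in the sources used here. Further deposited columns hold the authors' effect of the knockdown, its standard error, test statistics, p-values and q-values, and another table holds p-values and q-values combined for each gene. These are the authors' own comparison and were not used.

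The planned tests of KD against WT assumed such values or those of each library, so neither they nor other settings of them were run, and the part of the rule for named genes that picks changed genes of each list could not be applied. Genes were named if they were members, copies of members, *Setd2*, *Polrmt*, *Tfam*, *Lrpprc*, *Slirp* or *Mtpap*. Others (the highest or most variable gene of a list, *Dhx30*, *Ppargc1a*, *Eef1a1* and the markers) were named after their values were seen. Members and gene lists were chosen with earlier results of these data known.

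Levels were computed as the exponential of the mean minus 0.5, and SDs as the square root of the variance divided by the natural log of 2. Each variance was checked to rest on 4 libraries. The largest possible difference is the square root of 3 times the variance, and its computation was tested on simulated data. Positions, lengths and sequences came from GENCODE M21 (GRCm38), which held 98.6% of the transcripts in the same version. Copies were found by shared stretches of 31 bases. Depth per library is unknown, so no counting intervals are given. Python 3.11.15, numpy 2.4.6, pandas 2.3.3 and matplotlib 3.10.9 were used.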

Additional observations from a re-analysis of the deposited data

How the results depend on the processing

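All alternatives that were run were chosen after seeing the data. Without *mt-Co1*, the other members held 8.81% of the summed levels instead of 11.8%. The share was 11.8% when only transcripts of at least 100 counts entered the sum and 12.1% with the near-identical nuclear copies added. The number of members with a largest possible difference under a limit was 6 at 1.25-fold, 8 at 1.5-fold and 10 at 2-fold, and it stayed at 8 with the variance of read assignment taken off. With 150 bases taken off each length, which stands in for the fragment length, levels per kb of 8 of 10 members moved by more than their SD, and *mt-Co3* and *mt-Co1* exchanged places 2 and 3. No paired analysis was possible because the libraries were not analysed one by one, and for the same reason no library was left out in turn. The other settings that had been listed (Wald q-values, limma, other filters, other scalings, the q-values of genes) change a comparison that was not used and were not run. Pooled means and variances limit every statement to levels and ceilings.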

Other observations

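Not divided by length, the levels of the other 3 mitochondrial mRNAs were lower than those of most members. *mt-Atp8*, the small partner of *mt-Atp6* in ATP synthase, had a level of 238 kcounts (units of 1000 normalised estimated counts). Its SD was 0.24 and its largest possible difference between KD and WT 1.33-fold. Per kb, *mt-Atp8* was at 1168 kcounts, above all members but *mt-Co2*, *mt-Co1* and *mt-Co3*. Values per kb were 471 kcounts for *mt-Nd4l* and 83.9 kcounts for *mt-Nd3*. *mt-Nd4l*, a short membrane subunit of complex I, was at 140.0 kcounts with an SD of 0.19 and a ceiling of 1.26-fold. Of its 267 stretches of 31 bases, 264 also lie in *Gm10222* of the chr1 block, which was not in the table. The variance of read assignment of *mt-Nd4l* multiplied by its level was 0.930. *mt-Nd3* was at 29.2 kcounts with an SD of 0.40 and a ceiling of 1.62-fold. Its copy *Gm28438*, with 1 mismatch in 345 bases, was listed higher, at 171 kcounts with an SD of 0.25. *mt-Nd3* thus held only 14.6% of the summed levels of this pair, again a share of geometric means. For the 3 mRNAs with full copies among the members, the share on the mitochondrial gene was 88.1% or more.

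The ribosomal RNAs of mitochondria were also present in these polyadenylated libraries. *mt-Rnr1* was at 121 kcounts (SD 0.21) and *mt-Rnr2* at 146 kcounts (SD 0.42), with largest possible differences of 0.37 and 0.73 in log2. Among highly expressed nuclear transcripts, the most variable after the 3 mitochondrial copies was *Gm42418* on chromosome 17, at 223 kcounts with an SD of 1.32 and a ceiling of 4.89-fold.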
